A study of Homo sapiens with 60 samples.

Results

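The comparison set SH-SY5Y cells given 10 µM lead (Pb) against cells given 0.16 µM Pb, both collected on day 9 of neuronal differentiation, to describe across all genes what the high dose did beyond the lowest dose or opposite to it. Its 6 libraries, 3 replicate dishes of each dose, were found by matching the library titles and are 6 of the 60 libraries of the series. SH-SY5Y, a line from a human neuroblastoma, takes on features of neurons when differentiated, and the cells were wild type, at passage 39. All groups shared the same differentiation protocol of 18 days, and Pb was given from day 5 onward and renewed with the medium. The groups used were 10 µM and 0.16 µM Pb at day 9, the same doses at days 6, 12, 15 and 18, and 1.26 µM and 0 µM Pb at day 9. The dishes came from 1 line at 1 passage, so the p-values measure the spread between dishes and not between cell lines or donors.

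Neuroblastoma lines hold cells in a noradrenergic, neuron-like state (N-type) and cells in a flat, substrate-adherent, mesenchymal state (S-type), and cells can pass from one state to the other. SH-SY5Y is an N-type subclone. S-type cells are known for vimentin, CD44, annexins, collagens, fibronectin and the matricellular proteins CCN1 and CCN2, which are transcribed through the co-activators YAP and TAZ with TEAD factors. Pb is a divalent metal that can take the place of calcium and zinc in proteins and is known to cause oxidative stress, to which cells respond through NRF2, p53 and the chaperones of the cytosol and the endoplasmic reticulum (ER).

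Promoters of 5 genes on which the results turn are shown because each holds the letters of a motif known for its pathway. They are the 250 bases before the RefSeq start of each gene in GRCh38.p14, on the strand of the gene, with the motif in capitals. The TEAD motif was searched as GGAATGT, the kappaB motif as GGAATTTCC, the ER stress response element as CCAAT and CCACG with 9 bases of any kind between them, and the heat shock element as GAA, TTC and GAA with 2 bases of any kind after each of the first pair, on both strands. Matches of one motif did not overlap those of another in the windows printed. Matches in HSPA6 and ICAM1 lie on the other strand and read as the reverse complement.
CCN2, chr6:131951373-131951622, minus strand: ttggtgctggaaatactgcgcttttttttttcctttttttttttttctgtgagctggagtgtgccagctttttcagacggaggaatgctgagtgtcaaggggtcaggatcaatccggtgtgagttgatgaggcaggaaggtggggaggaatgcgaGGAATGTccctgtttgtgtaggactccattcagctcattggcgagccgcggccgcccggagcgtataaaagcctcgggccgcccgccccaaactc
HSPA5, chr9:125241344-125241593, minus strand: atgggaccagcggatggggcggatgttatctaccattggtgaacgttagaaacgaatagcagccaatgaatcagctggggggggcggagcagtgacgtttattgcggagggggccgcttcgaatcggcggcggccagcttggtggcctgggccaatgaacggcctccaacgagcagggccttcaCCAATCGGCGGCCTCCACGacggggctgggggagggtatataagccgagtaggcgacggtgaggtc
HSPA6, chr1:161524290-161524539, plus strand: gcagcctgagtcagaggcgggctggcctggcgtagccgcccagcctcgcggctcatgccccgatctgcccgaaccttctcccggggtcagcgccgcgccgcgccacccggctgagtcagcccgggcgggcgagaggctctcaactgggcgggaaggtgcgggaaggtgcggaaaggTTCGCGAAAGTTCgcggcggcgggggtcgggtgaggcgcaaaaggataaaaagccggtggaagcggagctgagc
CXCL8, chr4:73740319-73740568, plus strand: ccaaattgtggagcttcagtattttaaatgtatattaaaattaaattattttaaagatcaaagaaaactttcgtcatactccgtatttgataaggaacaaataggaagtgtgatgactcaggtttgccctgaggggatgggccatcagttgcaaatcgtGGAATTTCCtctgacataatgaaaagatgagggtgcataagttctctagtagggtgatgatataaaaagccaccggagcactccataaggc
ICAM1, chr19:10270870-10271119, plus strand: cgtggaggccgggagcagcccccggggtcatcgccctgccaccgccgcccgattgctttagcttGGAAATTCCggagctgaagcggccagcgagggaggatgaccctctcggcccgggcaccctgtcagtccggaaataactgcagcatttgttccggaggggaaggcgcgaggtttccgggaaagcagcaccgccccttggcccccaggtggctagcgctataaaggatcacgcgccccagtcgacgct

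The matches lie 95 (CCN2), 66 (HSPA5), 74 (HSPA6), 91 (CXCL8) and 186 (ICAM1) bases before the start. Among 27305 RefSeq promoter windows of 250 bases, 2.95% held the TEAD letters, 0.0806% the ER stress response element, 0.439% the heat shock element and 0.428% the kappaB letters. Among the 11976 tested genes with a promoter, the shares were 1.72%, 0.125%, 0.342% and 0.409%, in the same order. Of 106 genes lower with 10 µM that had a promoter in the table, 3 held the TEAD letters (CCN2, TGFB2 and S100A16), 3 the kappaB letters (ICAM1, CXCL8 and TNFRSF9) and 2 the ER stress response element (HSPA5 and TRIM5). Of 25 genes higher with 10 µM, 1 held the heat shock element (HSPA6). A match describes the letters and is not evidence of binding.

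Levels are given in counts per 1e+06 reads assigned to genes (CPM), and differences as 10 minus 0.16 µM on the log2(CPM + 1) scale with the standard error of the model, a scale that understates the change of genes near 1 CPM. The day 9 libraries held 26.1, 34.6 and 30 M reads (M stands for 1e+06) with 10 µM and 36.6, 35.8 and 37 M reads with 0.16 µM, so depth did not overlap between the doses. With all 6 thinned to the shallowest, an alternative chosen after seeing the data, 180 genes passed the threshold, of which 168 were shared with the 177 reported here. At day 9 no library of these groups stood apart in its loss of long transcripts, with slopes of level on log10 length between -0.026 and 0.025 with 10 µM and between -0.021 and -0.008 with 0.16 µM. One library of 10 µM at day 6 did, with a slope of -0.487, and counts over the other days are given with and without it. The noradrenergic identity of the cells showed in PHOX2A, HAND2, GATA3 and DBH in every library. The 6 noradrenergic markers summed to 1600 to 2310 CPM with 10 µM and 2020 to 2550 CPM with 0.16 µM. PHOX2A, the highest, varied between dishes, at 955, 1330 and 582 CPM with 10 µM. DBH was at 387, 371 and 397 CPM with 10 µM and 441, 449 and 475 CPM with 0.16 µM. It did not pass the threshold, and the other markers overlapped between the doses. TH, the first enzyme of catecholamine synthesis, was at 0.189 to 0.723 CPM over the 6 libraries. Markers of blood and endothelium were at 0 in all 6 libraries for 6 of 7 genes.

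At day 9 far more genes were lower than higher with the high dose. By limma with Benjamini-Hochberg adjustment at 0.05, 143 genes were lower and 34 higher with 10 µM than with 0.16 µM, which is 0.937% and 0.223% of the 15263 genes tested and 1.16% together. The higher calls were fewer without replicate 1 of 0.16 µM (14 higher, 113 lower), replicate 3 of 10 µM (18 higher, 120 lower) or replicate 2 of 0.16 µM (21 higher, 128 lower). The falls were also larger: 63 genes were below -1 on the log2(CPM + 1) scale and none was above 1. That scale understates change at low levels, as in HSPA6, a called rise with means of 0.926 CPM with 10 µM and 0.0547 CPM with 0.16 µM. In all 177 genes the 3 libraries of one dose lay apart from the 3 of the other, against 17.4% of all genes tested (6.8% below and 10.6% above). The calls were made on these same libraries, so the separation is largely built in and adds no support. For 169 of them, 139 lower and 30 higher, the mean with 1.26 µM lay between the means of the outer doses, against 38.1% of all genes tested. Genes chosen for a wide gap hold the mean of another group inside it more readily, so this count is a description and not a test of dose order. Low levels were common, since 68 of the 143 lower genes had under 5 CPM with both doses.

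**Figure D1:**
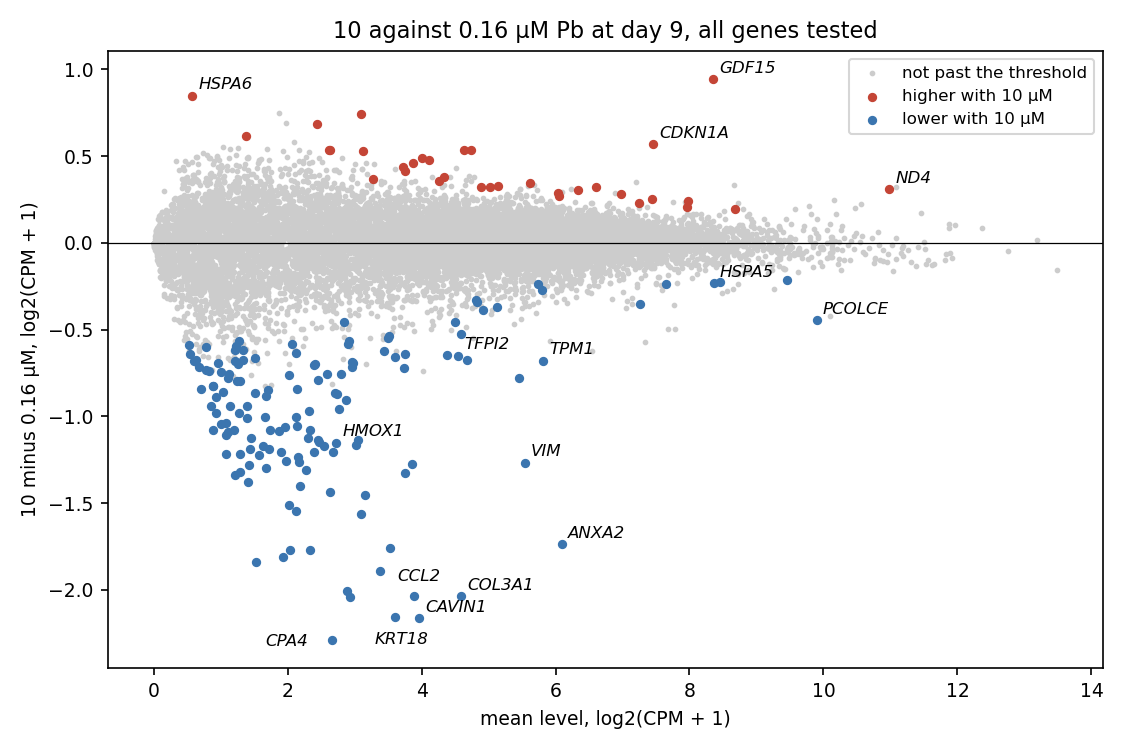
Difference between 10 and 0.16 µM Pb at day 9 (vertical, log2(CPM + 1)) against mean level of the 6 libraries (horizontal, log2(CPM + 1)) for the 15263 genes tested, 1 point per gene. The 143 lower genes (blue) reach -2.29 in CPA4, and the 34 higher genes (red) reach 0.95 in GDF15.

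Part of the genes of the mesenchymal state fell. Of 22 tested markers of mesenchymal or S-type cells, 11 were lower with 10 µM and none higher, with a median difference of -0.65 against 0.01 over all genes. The list was drawn up with earlier results of these data known. The count was 11 to 13 over 14 alternatives, 13 by DESeq2. The median was -1.15 with a pseudocount of 0.25, -1.32 by edgeR and -1.34 by DESeq2, and -0.52 with no filter on low values.

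ANXA2, a calcium-dependent membrane-binding annexin (chr15:60347151-60397986), was at 25.4, 32.4 and 33.9 CPM with 10 µM and 105, 102 and 104 CPM with 0.16 µM, 3.38-fold lower, with a difference of -1.74 ± 0.10 (adjusted p = 1.53e-17). VIM, the intermediate filament of mesenchymal cells, was at 20.4, 30.1 and 29.3 CPM with 10 µM and 64.1, 58.8 and 70.9 CPM with 0.16 µM (-1.27 ± 0.09). CD44, a hyaluronan receptor, was at 1.80, 4.14 and 4.40 CPM with 10 µM and 11.3, 13.3 and 10.2 CPM with 0.16 µM (-1.56 ± 0.17, adjusted p = 2.71e-09). In all 3 genes every 10 µM dish lay below every 0.16 µM dish. LAYN, another hyaluronan receptor, was at 2.18, 3.79 and 4.60 CPM with 10 µM against 14.3, 15.5 and 16.4 CPM with 0.16 µM (-1.89 ± 0.16). CAVIN1, which shapes caveolae with the caveolins, was at 3.52, 3.79 and 7.30 CPM with 10 µM against 23.8, 23.5 and 25.6 CPM with 0.16 µM (-2.16 ± 0.21, adjusted p = 4.38e-10).

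Targets and a partner of the YAP/TAZ pathway were among them. CCN1 was at 1.30, 2.49 and 2.30 CPM with 10 µM and 11.5, 12.1 and 10.2 CPM with 0.16 µM (-2.04 ± 0.21, adjusted p = 9.36e-10). CCN2, whose promoter is printed above, was at 1.19, 1.74 and 0.800 CPM with 10 µM and 6.56, 5.27 and 4.68 CPM with 0.16 µM (-1.55 ± 0.15). WWTR1, which encodes TAZ, differed by -0.87 ± 0.17 (adjusted p = 0.0011). The remaining members past the threshold were the actin-binding TAGLN (-1.17 ± 0.16) and TPM1 (-0.68 ± 0.08), the matricellular THBS1 (-1.08 ± 0.16) and the calcium-binding S100A11 (-1.20 ± 0.19). Not every marker moved: LGALS1 differed by 0.01, SNAI2 by 0.00 and CNN3 by -0.03, and S100A6 (0.23) and ACTA2 (0.36) had positive estimates that missed the threshold. The summed level of 7 defining S-type markers was 90.5 to 107 CPM with 10 µM and 157 to 173 CPM with 0.16 µM, with PRRX1 at 0 in all 6 libraries and 3 of the 7 past the threshold. In bulk RNA, fewer cells of a type and less RNA per cell cannot be told apart. Summed neuronal markers stood at 2370 to 2460 CPM with 10 µM and 2260 to 2310 CPM with 0.16 µM.

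**Figure D2:**
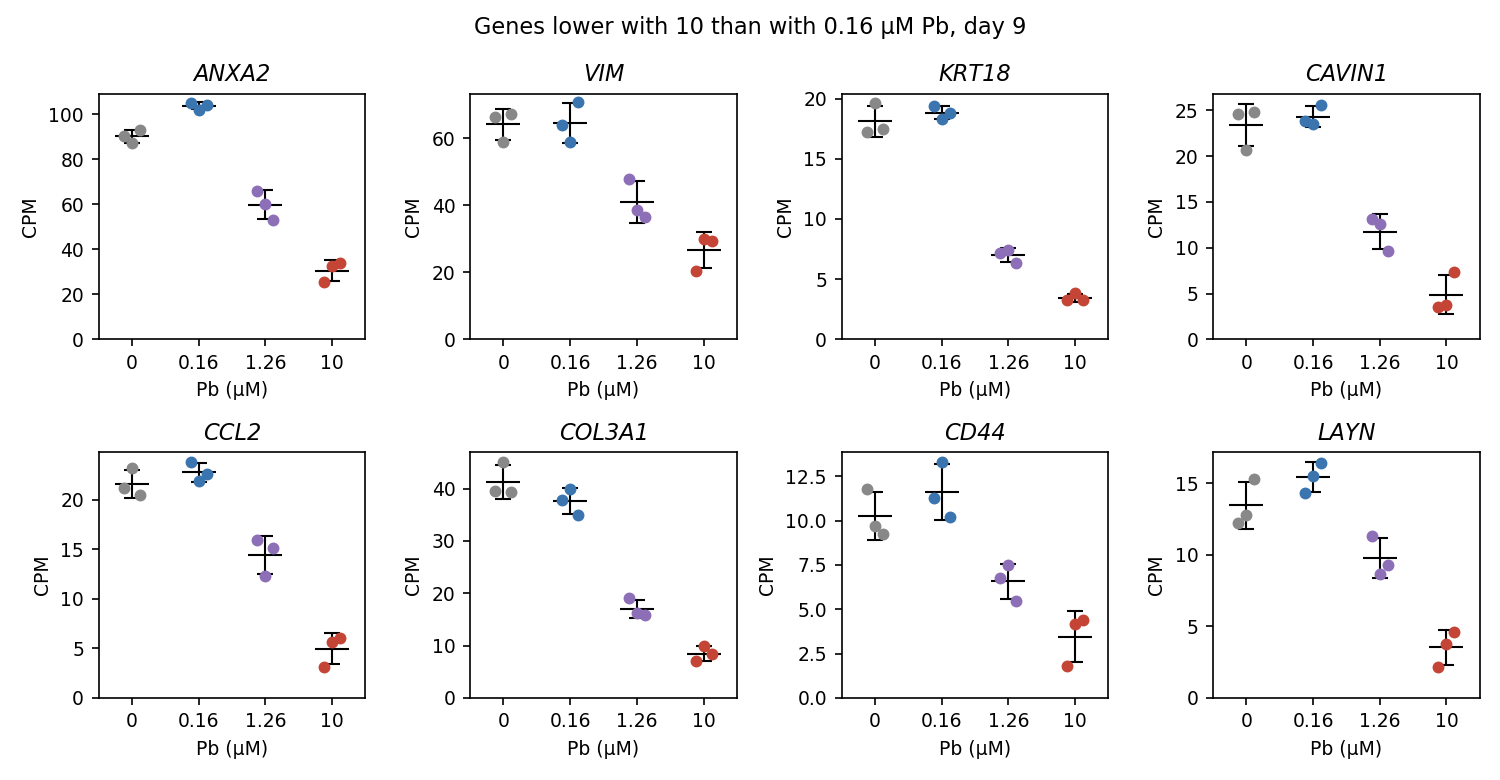
Level at day 9 (CPM, linear axes from 0) of 8 genes lower with 10 than with 0.16 µM Pb, by dose; points are dishes and bars the mean with SD (n = 3). In each gene the 10 µM dishes lie below the dishes of the other doses, and the 1.26 µM means lie between the 0.16 and 10 µM means.

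A pair of keratins of simple epithelia fell. KRT18 (chr12:52948855-52952906) was at 3.25, 3.85 and 3.27 CPM with 10 µM and 19.4, 18.3 and 18.8 CPM with 0.16 µM, 5.45-fold lower (-2.16 ± 0.14, adjusted p = 1.86e-15). Its partner KRT8 was at 0.153, 0.260 and 0.567 CPM with 10 µM and 1.18, 2.34 and 2.14 CPM with 0.16 µM (-1.11 ± 0.20). These 2 of 9 epithelial markers passed, while KRT19 and EPCAM differed by 0.00 and 0.14. The annotated spans of KRT8 and KRT18 overlap by 1006 bases and the strand setting of the counting is not given, so reads in the overlap cannot be assigned with certainty. The 61 processed copies of KRT18 in the table summed to 3.03 to 3.73 CPM with 10 µM and 3.60 to 3.99 CPM with 0.16 µM, and the 36 copies of KRT8 summed to 8.50 to 11.7 CPM with 10 µM and 8.73 to 9.84 CPM with 0.16 µM, above KRT8 itself. Reads shared with these copies make both levels uncertain, that of KRT8 more so.

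Matrix genes moved in part. Of 28 collagen and matrix genes tested, 6 were lower and none higher, with a median of -0.19. COL3A1, a fibrillar collagen, was at 7, 9.96 and 8.47 CPM with 10 µM and 37.9, 39.9 and 35.0 CPM with 0.16 µM, 4.44-fold lower (-2.04 ± 0.23, adjusted p = 6.79e-09). COL1A1 differed by -1.17 ± 0.20, and the basement membrane collagens COL4A1 and COL4A2, neighbours on chromosome 13, by -1.23 ± 0.20 and -0.72 ± 0.16. The call of COL4A2 was lost without replicate 3 of 0.16 µM (adjusted p = 0.0601) or replicate 1 of 10 µM (adjusted p = 0.101). FN1, fibronectin, was at 17.7, 17.0 and 21.4 CPM with 10 µM and 33.7, 29.7 and 27.8 CPM with 0.16 µM (-0.68 ± 0.17, adjusted p = 0.0221). Its call was lost without replicates 1 or 2 of 0.16 µM (adjusted p = 0.194 and 0.0692) and without replicates 1 or 2 of 10 µM (adjusted p = 0.123 and 0.141). TFPI2, a secreted inhibitor of serine proteases, was at 16.5, 17.3 and 17.8 CPM with 10 µM and 27.4, 26.9 and 28.3 CPM with 0.16 µM (-0.65 ± 0.08). The collagen VI genes COL6A1 and COL6A2 differed by 0.02 and 0.03, and TIMP1 by 0.06.

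Secreted regulators of the matrix and of TGF-beta signalling fell as well. TGFB2, a TGF-beta ligand, was at 0.115, 0.318 and 0.333 CPM with 10 µM and 4.24, 3.07 and 3.19 CPM with 0.16 µM (-1.84 ± 0.18), and INHBA, a subunit of activin, differed by -0.54 ± 0.10. In all, 3 of 19 BMP and TGF-beta genes passed. The BMP targets ID1, ID2 and ID3 differed by 0.03, 0.10 and 0.16 and did not pass.

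Inflammatory genes under NF-kB were lower in 5 of 16 tested, with none higher and a median of -0.23. CCL2, a monocyte chemokine, was at 3.14, 5.64 and 6.07 CPM with 10 µM and 23.8, 21.9 and 22.6 CPM with 0.16 µM, 4.60-fold lower (-2.04 ± 0.18, adjusted p = 2.92e-11). The adhesion molecule ICAM1 was at 1.84, 2.17 and 3.17 CPM with 10 µM and 8.91, 7.59 and 7.71 CPM with 0.16 µM (-1.44 ± 0.17). The neutrophil chemokine CXCL8 was at 0.765, 1.16 and 1.97 CPM with 10 µM and 4.21, 4.24 and 4.06 CPM with 0.16 µM (-1.20 ± 0.17), a call that edgeR did not make (adjusted p = 0.0641). LIF, a cytokine of the interleukin-6 family, and TRAF1, an adaptor of TNF receptors, differed by -1.15 ± 0.22 and -0.98 ± 0.20. Without replicate 1 of 10 µM, LIF had an adjusted p of 0.0586. The feedback inhibitor NFKBIA and the subunits NFKB1, NFKB2 and RELB had estimates of -0.21, -0.17, -0.24 and -0.12 and did not pass. The sum of S-type markers, 90.5 to 107 CPM with 10 µM and 157 to 173 CPM with 0.16 µM, was lower alongside the keratins, the matrix genes, the TGF-beta genes and these inflammatory genes, and its part in their falls was not tested.

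Of the 10 largest falls among genes with at least 5 CPM, 4 have not yet been described. CPA4, a carboxypeptidase, was at 0.383, 1.42 and 1.90 CPM with 10 µM and 10.3, 8.12 and 9.98 CPM with 0.16 µM (-2.29 ± 0.21, adjusted p = 2.92e-11). CYP24A1, the mitochondrial enzyme that inactivates vitamin D, was at 1.38, 2.43 and 2.10 CPM with 10 µM and 11.2, 10.1 and 11.1 CPM with 0.16 µM (-2.01 ± 0.14, adjusted p = 3.74e-15). CRIM1, a membrane protein that binds BMPs, was at 0.612, 1.48 and 1.90 CPM with 10 µM and 6.97, 6.86 and 6.38 CPM with 0.16 µM (-1.77 ± 0.18). The cytokine IL32 was at 0.344, 1.07 and 1.27 CPM with 10 µM and 5.52, 5.22 and 5.19 CPM with 0.16 µM (-1.77 ± 0.18).

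Rises were fewer, and 4 of them were of p53 targets. GDF15, the largest rise on the log2(CPM + 1) scale and a secreted stress cytokine (chr19:18386158-18389176), was at 409, 427 and 446 CPM with 10 µM and 214, 216 and 234 CPM with 0.16 µM, 1.93-fold higher (0.95 ± 0.11, adjusted p = 8.37e-09). CDKN1A, the p21 inhibitor of cyclin-dependent kinases, was at 205, 203 and 221 CPM with 10 µM and 132, 142 and 149 CPM with 0.16 µM (0.57 ± 0.08, adjusted p = 2.03e-06). With ZMAT3 (0.32 ± 0.07), which encodes an RNA-binding protein, and the pro-apoptotic BAX (0.28 ± 0.07, adjusted p = 0.0262), 4 of 25 p53 targets passed, all higher, and the median was 0.24. With median-ratio rescaling 3 passed, without BAX (adjusted p = 0.128). The call of BAX was not made by edgeR (adjusted p = 0.132) or DESeq2 (adjusted p = 0.0806) and was lost in each of the 6 fits that left out 1 dish (adjusted p from 0.0504 to 0.146). In 18 of the 25 genes every 10 µM dish lay above every 0.16 µM dish, against 10.6% of all genes. The mitochondrially encoded transcripts moved alongside: all 13 had positive estimates, 10 did not overlap between the doses, the median was 0.23, and 1, ND4, passed. Other lists also leaned one way. Positive estimates were found in 28 of 31 cholesterol and fatty acid genes (median 0.09) and 23 of 24 lysosome and autophagy genes (median 0.09). Negative estimates were found in 40 of 44 cytosolic ribosomal genes (median -0.07). Without overlap were 11 and 9 of the first lists, above, against 10.6% of all genes tested. Of the ribosomal genes, 14 lay below without overlap, against 6.8% of all genes tested. The part of these shifts in the p53 result was not tested. MDM2 (0.19) and the death receptor gene TNFRSF10B (0.35) did not pass.

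Other rises were SGK1, a kinase induced by serum and glucocorticoids, at 32.0, 27.9 and 31.4 CPM with 10 µM and 20.1, 23.3 and 18.7 CPM with 0.16 µM (0.54 ± 0.10, adjusted p = 0.000293), and TTC39A (0.69 ± 0.12). ROR1-AS1 rose by 0.53 ± 0.10, but its annotated span lies wholly within ROR1, and without a stated strand its reads cannot be told from those of that gene. SLC35F1 (0.75 ± 0.18), NRROS (0.54 ± 0.13) and INKA2 (0.49 ± 0.12) were past the threshold, but without replicate 1 of 10 µM their adjusted p was 0.094, 0.0548 and 0.0989, and without replicate 1 of 0.16 µM it was 0.0818, 0.296 and 0.0707. SLC35F1 was not called by edgeR (adjusted p = 0.23), by DESeq2 (adjusted p = 0.134) or with a pseudocount of 0.25 (adjusted p = 0.32). All 3 genes also lost the call without replicate 3 of 10 µM (adjusted p = 0.138, 0.0926 and 0.149). NRROS and INKA2 lost it without replicate 2 of 0.16 µM (adjusted p = 0.141 and 0.203), NRROS without replicate 2 of 10 µM (adjusted p = 0.126) and SLC35F1 without replicate 3 of 0.16 µM (adjusted p = 0.128). The span of INKA2 overlaps that of INKA2-AS1. DCX, the microtubule protein of young neurons, was at 186, 187 and 189 CPM with 10 µM and 157, 156 and 159 CPM with 0.16 µM (0.25 ± 0.06, adjusted p = 0.00577), the only one of 24 genes of the neuronal cytoskeleton to pass. The mitochondrial ND4, a subunit of complex I, differed by 0.31 ± 0.08 (adjusted p = 0.0278) and did not pass with rescaling (adjusted p = 0.0667), with no filter (adjusted p = 0.0765), with edgeR (adjusted p = 0.0648), or in 5 of the 6 fits that left out 1 dish (adjusted p from 0.0646 to 0.195).

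Of the 721 genes in the lists, not all of which were tested, 42 passed in all. Over all genes tested 1.16% passed, and the lists were chosen with earlier results of these data known. Single members of other lists included the lactate dehydrogenase LDHA (-0.24 ± 0.05), the choline transporter SLC5A7 (-0.94 ± 0.18), the AP-1 subunit FOSL2 (-0.64 ± 0.16), the MAP kinase phosphatase DUSP4 (0.21 ± 0.05) and the secreted glycoprotein STC2 (-0.85 ± 0.22). LDHA lost its call without replicate 2 of 10 µM (adjusted p = 0.0663). FOSL2, DUSP4 and STC2 lost theirs in 5, 4 and 4 of the 6 fits without 1 dish, with adjusted p up to 0.162, 0.316 and 0.385. STC2 was called neither by edgeR nor by DESeq2 (adjusted p = 0.155 and 0.0815), and DUSP4 was not called by edgeR (adjusted p = 0.0729). No noradrenergic (21 tested), synaptic (26) or ribosomal (44) gene passed by limma, with 4, 3 and 1 at an unadjusted p under 0.05. DESeq2 called 1 noradrenergic gene, and edgeR none in these lists. Noradrenergic genes without overlap numbered 6, all below, against 6.8% of all genes tested. Synaptic genes without overlap numbered 11, all above, against 10.6%.

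**Figure D3:**
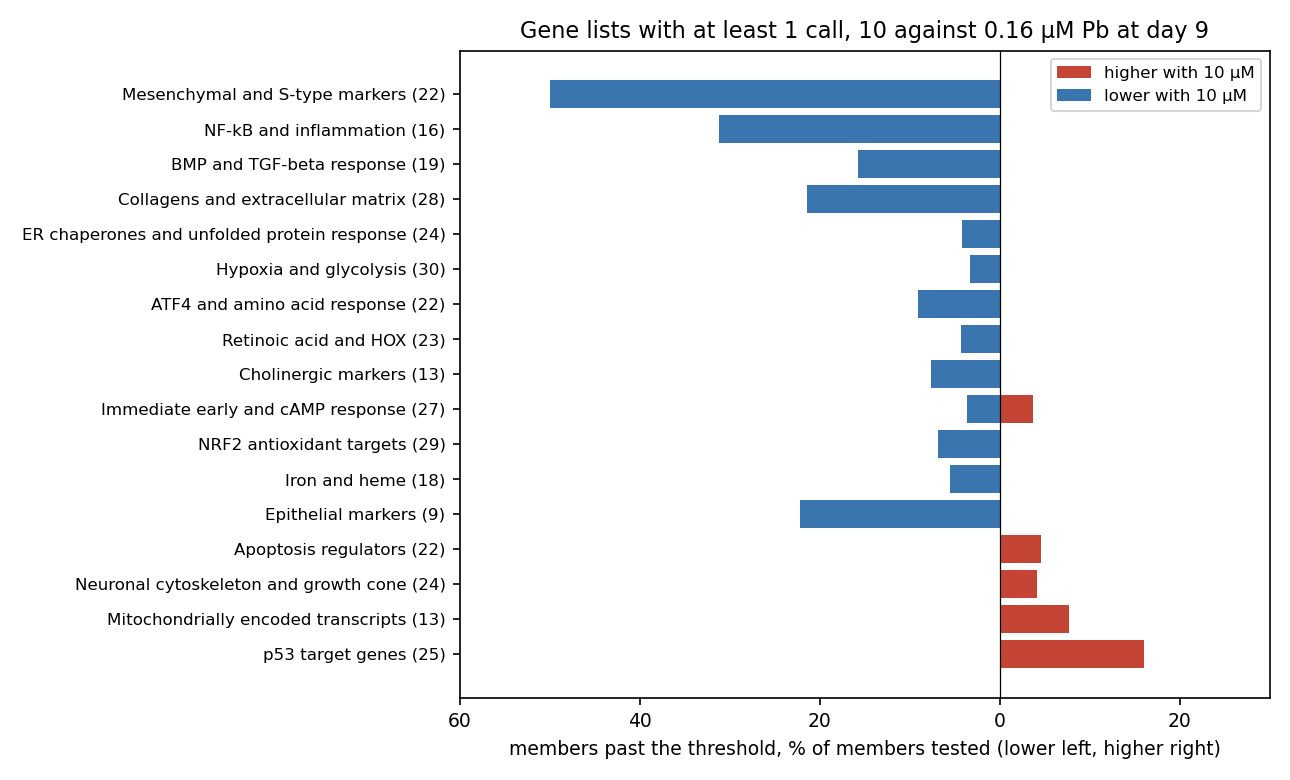
Share of tested members of each gene list past the threshold between 10 and 0.16 µM Pb at day 9 (horizontal, percent; lower to the left in blue, higher to the right in red), with the number tested in parentheses, for lists with at least 1 call. Mesenchymal markers (11 of 22 lower) lead one side and p53 targets (4 of 25 higher) the other.

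HSPA6, an inducible heat shock protein that is silent in most unstressed cells, was singled out after its values were seen. It was at 0.459, 1.19 and 1.13 CPM with 10 µM and 0.164, 0 and 0 CPM with 0.16 µM (0.85 ± 0.11, adjusted p = 1.32e-07), and at 0 in all dishes of 0 and 1.26 µM. At day 9 only dishes of 10 µM reached the 1 CPM that the filter asked for. On the other days the highest mean of HSPA6 at these doses was 0.86 CPM, at day 12. Its entry to the test thus rested in part on the group in which it was high, and its adjusted p is conditioned on that. DESeq2 did not call HSPA6 (adjusted p = 0.24). Its near-identical copy HSPA7 was at 0. The 19 listed heat shock genes, among them HSPA1A (-0.04) and DNAJB1 (-0.06), held no call by limma, 2 at an unadjusted p under 0.05, none by edgeR and 1 by DESeq2.

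Of the genes that the lowest dose raised over 0 µM, HMOX1 was lower with 10 than with 0.16 µM and NQO1 did not pass between these doses. Against 0 µM, 0.16 µM changed 2 genes (0.0131% of those tested), HMOX1 and NQO1, both higher, and 348 genes had an unadjusted p under 0.05. Against 0 µM, 10 µM changed 215 genes (1.41%), 68 higher (0.446%) and 147 lower (0.963%). The comparisons share libraries, so their values are set side by side. HMOX1, the heme-degrading oxygenase (chr22:35381096-35394207), was at 1.95, 3.44 and 4.10 CPM with 10 µM and 8.88, 7.73 and 7.49 CPM with 0.16 µM, 2.54-fold lower (-1.15 ± 0.16, adjusted p = 2.18e-06). The 0 µM dishes had 2.07, 1.30 and 0.843 CPM and the 1.26 µM dishes 6.71, 6.34 and 8.12 CPM, so the level was highest at the 2 middle doses. Its difference from 0 µM was 0.79 ± 0.16 with 10 µM (adjusted p = 0.00211) and 1.94 ± 0.16 with 0.16 µM. When only the libraries of both doses were fitted, the difference between 10 and 0.16 µM had an adjusted p of 0.0536. That smaller fit, which made 95 calls, also lost those of KRT8 (adjusted p = 0.0547), TRAF1 (0.0561), SGK1 (0.0631), INHBA (0.0659), SLC7A11 (0.0703), LDHA and MMP9 (0.0748 each), HSPA6 (0.097), INKA2 (0.105), LIF (0.113), STC2 (0.124), ATP1B2 (0.142), DUSP4 (0.152), PMEL (0.168) and NRROS (0.2).

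NQO1, a quinone reductase under NRF2, was at 33.3, 28.2 and 33.0 CPM with 10 µM and 30, 35.6 and 32.7 CPM with 0.16 µM, which overlap (-0.06 ± 0.11), against 17.2, 17.9 and 19.5 CPM with 0 µM. SLC7A11, the cystine transporter, was at 0.918, 1.19 and 0.733 CPM with 10 µM and 1.94, 2.15 and 2.19 CPM with 0.16 µM (-0.67 ± 0.17, adjusted p = 0.0277), a call that neither edgeR nor DESeq2 made (adjusted p = 0.158 and 0.0926) and that was lost in 5 of the 6 fits without 1 dish (adjusted p from 0.0713 to 0.216). HMOX1 and SLC7A11 were the 2 of 29 NRF2 targets to pass, while 19 of the 29 had positive estimates (median 0.02). Against 0 µM, 7 of the 29 were higher with 10 µM (median 0.14) and 2 with 0.16 µM (median 0.11), and none was lower with these doses. TXNRD1, GCLC and SRXN1 differed by 0.03, 0.07 and 0.10. Of 7 metallothionein and zinc genes none passed by limma, edgeR or DESeq2, with 2 at an unadjusted p under 0.05.

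HSPA5, the ER chaperone BiP, was slightly lower with the high dose, at 296, 295 and 313 CPM with 10 µM and 348, 355 and 359 CPM with 0.16 µM (-0.23 ± 0.05, adjusted p = 0.00155). The 0 µM dishes had 331, 325 and 319 CPM. HSPA5 was the only one of 24 ER genes to pass. The ER lectin CALR (-0.17), the HSPA5 co-chaperone DNAJB11 (-0.19) and HSP90B1 (-0.13) did not. Of the 24, 18 had negative estimates (median -0.05) and 6 had an unadjusted p under 0.05. In 8 every 10 µM dish lay below every 0.16 µM dish, against 6.8% of all genes tested.

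In 17 of the 177 genes, 2 higher and 15 lower with 10 µM, all 0 µM dishes lay between those of the outer doses, so that the doses stood on opposite sides of the untreated cells. The share over all genes tested was 0.249%. A wide gap holds the dishes of another group more readily, and the 177 genes were chosen for such a gap. The count of 17 is therefore a description and not a test of opposite effects. ANXA2 had 90.4, 87.3 and 93.0 CPM with 0 µM, below every 0.16 µM dish and above every 10 µM dish. The gelatinase MMP9, at 1.84, 5.12 and 4.97 CPM with 10 µM and 12.3, 10.9 and 12.4 CPM with 0.16 µM, had 9.75, 9.01 and 8 CPM with 0 µM. The span of MMP9 overlaps that of SLC12A5-AS1. CPA4 and COL4A2 were also among the 5 largest such falls in genes with at least 5 CPM. On the higher side, ATP1B2, a subunit of the sodium pump, was at 7.92, 9.43 and 10.6 CPM with 10 µM and 6.31, 6.22 and 5.81 CPM with 0.16 µM, with 7.53, 7.26 and 6.56 CPM in 0 µM dishes. PMEL, a pigment cell protein, was at 6.43, 6.19 and 6.10 CPM with 10 µM and 3.88, 3.38 and 4.84 CPM with 0.16 µM, with 5.51, 4.96 and 5.48 CPM in 0 µM dishes. ATP1B2 lost its call without replicate 3 of 10 µM (adjusted p = 0.0936), and PMEL without replicate 1 of 10 µM (adjusted p = 0.0786) and without replicates 1 or 2 of 0.16 µM (adjusted p = 0.0765 and 0.189). None of these 6 genes differed between 0.16 and 0 µM past the threshold, with adjusted p of 1.0 and differences between -0.34 in PMEL and 0.43 in CPA4.

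**Figure D4:**
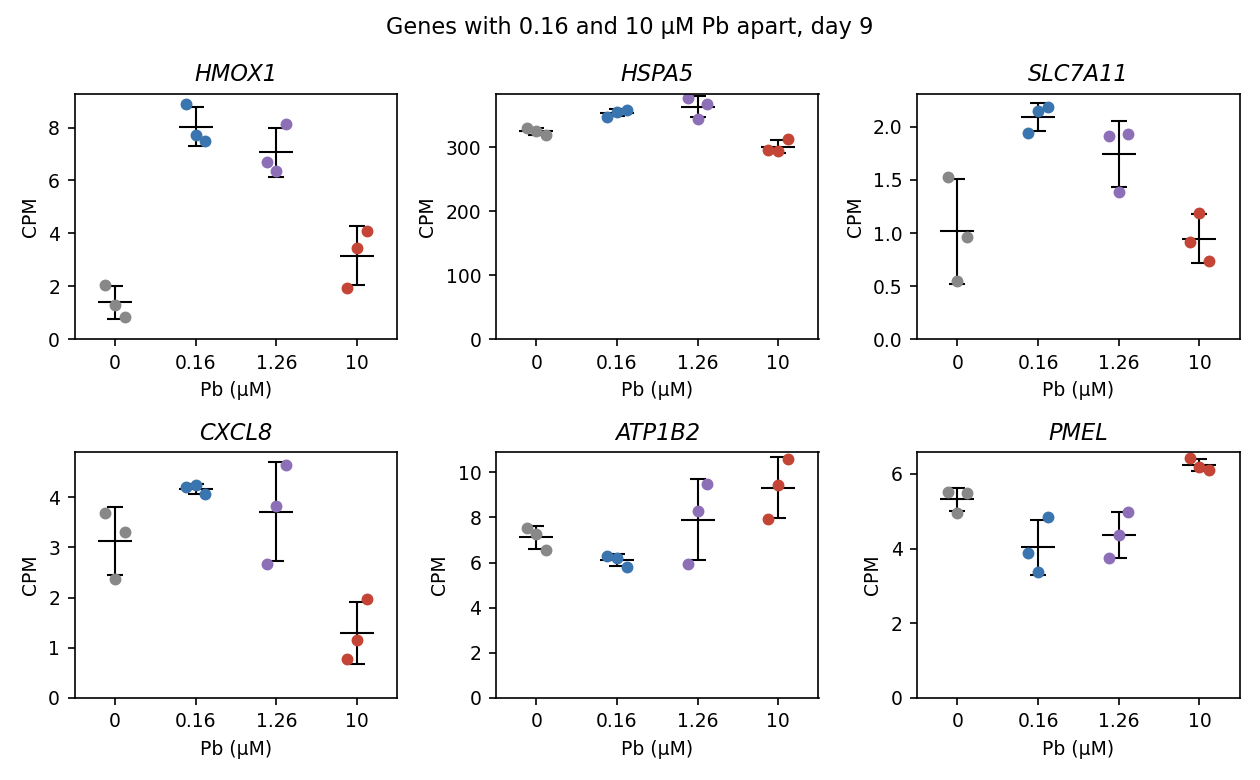
Level at day 9 (CPM, linear axes from 0) of 6 genes by dose; points are dishes and bars the mean with SD (n = 3). HMOX1 and SLC7A11 are highest at 0.16 and 1.26 µM, HSPA5 and CXCL8 are lowest at 10 µM, and ATP1B2 and PMEL have their lowest mean at 0.16 µM.

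The same doses were also compared on the other days. Over the mean of days 6, 12, 15 and 18, 10 against 0.16 µM gave 1583 calls (10.4% of genes), 624 higher (4.09%) and 959 lower (6.28%). With median-ratio rescaling that split was 802 higher and 767 lower. Without day 18, whose library names carry another prefix in the labels, 627 genes were called, and without the day 6 library low in long transcripts 1424. The difference at day 9 departed from the mean of the other days in 185 genes (1.21%), 46 upward (0.301%) and 139 downward (0.911%), in 116 without day 18 and in 200 without that day 6 library. Of the 143 genes lower at day 9, 32 were also lower over the other days, 9 were higher there, and 92 had a day 9 difference that departed from that of the other days. Those that departed numbered 77 without day 18 and 96 without the day 6 library. Of the 34 higher genes, 19 were higher over the other days, none was lower, and 7 departed (4 without day 18). These genes were chosen on the day 9 difference, which is part of the gap, so the counts are descriptions. Low levels limit them further, since 36 of the 143 lower genes, 27 of the 92 among them, were under 1 CPM at both doses on days 12, 15 and 18, where the scale leaves little room for a difference. Of the 33 lower genes with at least 5 CPM at 1 or both doses on each other day, 19 departed, and 14 without day 18.

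ANXA2 differed by -1.74 ± 0.10 at day 9 and by 0.21 ± 0.05 over the other days, a gap of -1.95 ± 0.11 (adjusted p = 1.28e-17). Without day 18 the mean of its other days was 0.09 ± 0.06 (adjusted p = 0.481), and the gap was -1.82 ± 0.13. TFPI2 was lower at day 9 and higher over the other days, with 0.67 ± 0.04 (adjusted p = 6.59e-18), or 0.41 ± 0.04 without day 18. KRT18 differed by -0.23 ± 0.07 over the other days, with a gap of -1.93 ± 0.16. The direction thus turned in ANXA2 as well as in TFPI2, but the rise of ANXA2 over the other days was lost without day 18. Mesenchymal markers had a median of 0.00 over the other days, with 2 higher and 5 lower, and none higher and 3 lower without day 18. COL3A1 was lower over the other days too (-0.98 ± 0.11), with its lowest value at day 12 (-2.53 ± 0.23).

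HSPA5 differed by 0.40 ± 0.02 over the other days, most at day 18 (1.21 ± 0.05), and by -0.16 ± 0.05 at day 12, the same sign as at day 9. Without day 18 its mean over the other days was 0.13 ± 0.03 and its gap of -0.63 ± 0.05 was -0.36 ± 0.05. Of the 24 ER genes, 18 were higher over the other days, with a median of 0.26, and 8 without day 18, with a median of 0.10. The gap of day 9 was past the threshold in 13 of them, all downward, and in 6 without day 18. Cell cycle genes were lower in 29 of 32 over the other days (25 without day 18), while at day 9 limma, edgeR and DESeq2 called none and 1 had an unadjusted p under 0.05. They still leaned downward at day 9, with 27 negative estimates and a median of -0.04. In 9 of them every 10 µM dish lay below every 0.16 µM dish, against 6.8% of all genes tested. The test of the gap itself passed in 9 of the 32, all upward, and in 1 without day 18. Without the day 6 library the values over the other days were 0.20 in ANXA2, 0.66 in TFPI2, 0.39 in HSPA5 and -0.86 in COL3A1, and 19 ER genes were higher, 29 cell cycle genes lower, and 2 mesenchymal markers higher and 5 lower. GDF15 rose at day 9 and over the other days (0.89 ± 0.05), as did CDKN1A (0.33 ± 0.04), and neither departed at day 9 from the other days (adjusted p = 0.944 and 0.278). HMOX1 differed by -0.07 ± 0.08 over the other days, with a gap of -1.08 ± 0.18 (adjusted p = 9.27e-05).

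**Figure D5:**
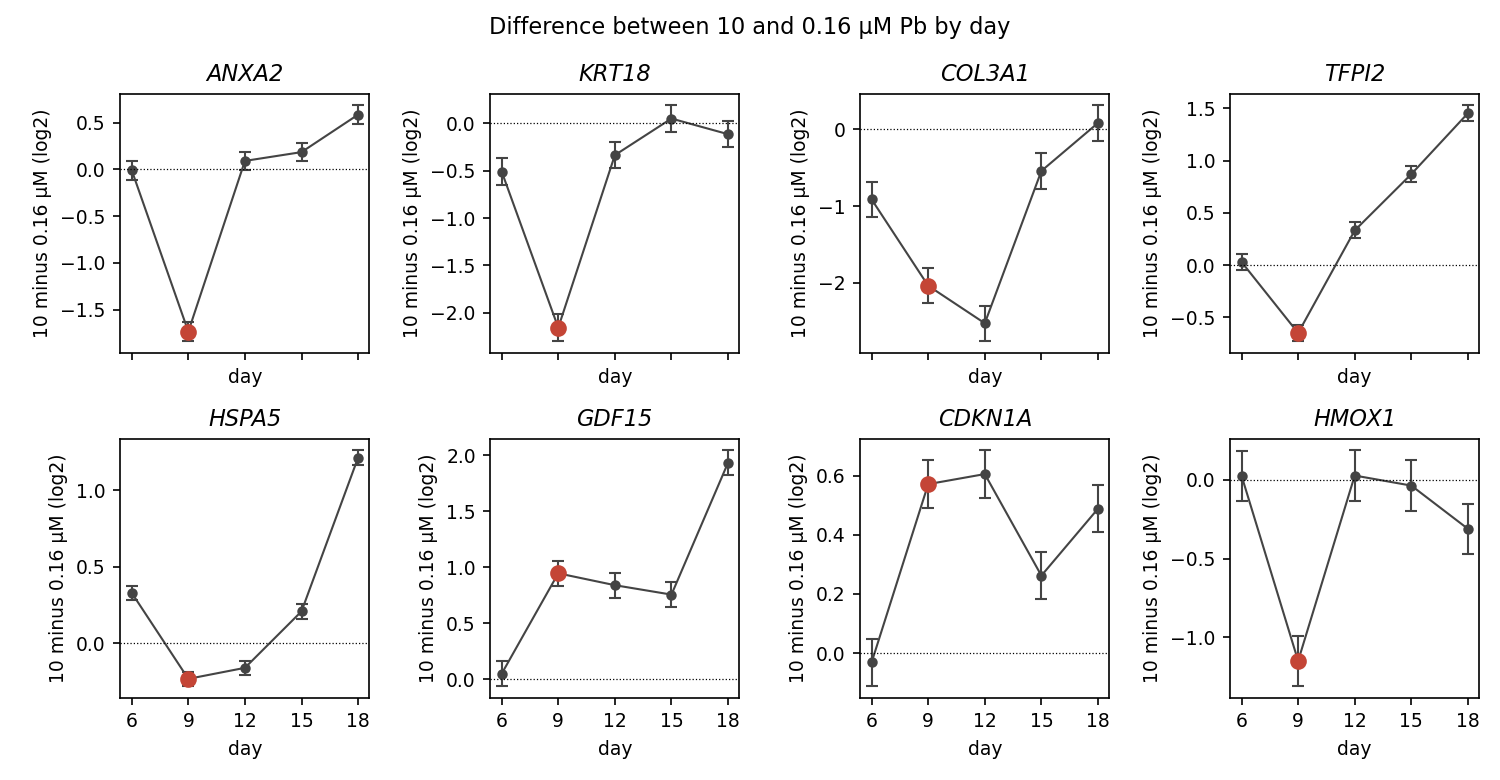
Difference between 10 and 0.16 µM Pb on the log2(CPM + 1) scale (vertical, with the standard error of the model, 3 dishes a dose) by day (horizontal) for 8 genes, with day 9 in red. ANXA2, KRT18 and HMOX1 dip at day 9, TFPI2 climbs to 1.45 at day 18, and GDF15 stays positive from day 9 on.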

How the data were processed

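RNA of 60 libraries (20 groups of 3 dishes) was sequenced by the authors with PlexWell, a plate-based tagmentation method. The deposited values are counts per 1e+06 reads assigned to genes (CPM), made with FastQC, MultiQC, STAR, featureCounts and the build GRCh38, as named in the submitters' processing notes; versions, annotation and strand setting are not given in the sources used here. Every value was a whole number of reads within 0.01 read (100% of values), and libraries held 16.6 to 50.5 M reads (M stands for 1e+06).

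Of 37334 genes, the 15263 that reached 1 CPM in 3 or more libraries were analysed as log2(CPM + 1) in limma 3.58.1 (R 4.3.3), with 1 mean per group over all 60 libraries, an intensity trend and 40 residual degrees of freedom. Tests were two-sided, with Benjamini-Hochberg adjustment over all genes tested at 0.05. Replicate numbers were not taken as pairs, since same-numbered dishes did not deviate together in every pair at day 9. Genes named were the 10 largest rises and falls with at least 5 CPM and no overlap, up to 5 in each direction with 0 µM between the doses, up to 4 members a list, and the 4 smallest p between days; a few genes that the rule chose are not reported here. The comparison, the members and the 32 gene lists were chosen with earlier results of these data known. Positions and promoters are from RefSeq, GRCh38.p14, in which 36621 symbols were found. The model was also run on simulated data, the outcome of which is not given here. Alternatives were edgeR 4.0.16 and DESeq2 1.42.0 on recovered reads, another pseudocount, no filter, rescaling, a smaller fit, a replicate block, leaving out day 18, single libraries, and thinning.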

Additional observations from a re-analysis of the deposited data

Results flagged for a closer look

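For 185 genes the difference between 10 and 0.16 µM Pb at day 9 departed, by a test of the gap itself, from its mean over days 6, 12, 15 and 18. The genes below were chosen by the naming rule and passed at day 9, so a gap in the day 9 direction is partly built in. Among those lower at day 9, the gap on the log2(CPM + 1) scale was -1.95 in ANXA2, -1.93 in KRT18, -1.85 in CCN1, -1.80 in CAVIN1, -1.79 in CCL2, -1.71 in CRIM1, -1.46 in MMP9, -1.34 in LAYN, -1.32 in TFPI2, -1.19 in LIF, -1.12 in ICAM1, -1.08 in HMOX1, -1.06 in COL3A1, -1.06 in VIM, -0.998 in STC2, -0.95 in KRT8, -0.93 in SLC7A11, -0.89 in COL4A1, -0.75 in INHBA, -0.73 in FOSL2 and -0.63 in HSPA5. Among those higher at day 9 it was 0.78 in SLC35F1, 0.65 in ATP1B2 and 0.53 in PMEL.

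In 6 more genes both doses were under 1 CPM on days 12, 15 and 18, which left little room for a difference on those days. At day 6 the larger of the dose means ran from 1.05 CPM in CXCL8 to 6.14 CPM in CPA4. Over all other days their difference ran from -0.275 in IL32 to 0.218 in CXCL8. The gap was -2.07 in CPA4, -2.03 in CYP24A1, -1.70 in CCN2, -1.59 in TGFB2, -1.50 in IL32 and -1.42 in CXCL8. CYP24A1 was at most 0.0202 CPM, as a mean of 3 dishes, on days 12, 15 and 18. CCL2, CRIM1 and ICAM1, with means of at most 1.45, 1.16 and 1.33 CPM on those days, had little room to differ either. KRT8 had means of at most 0.668 CPM on day 12, 0.236 CPM on day 15 and 1.93 CPM on day 18. Without day 18 the gap was no longer past the threshold in COL3A1 (adjusted p = 0.277), PMEL (adjusted p = 0.181), KRT8 (adjusted p = 0.101), SLC35F1 (adjusted p = 0.0629) and FOSL2 (adjusted p = 0.0528). What sets day 9 apart was not tested.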

How the results depend on the processing

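None of the 177 genes called between 10 and 0.16 µM at day 9 reversed its direction in the 14 alternatives run for that comparison, and 75 of them (7 higher, 68 lower) kept their call in each alternative that gave an adjusted p. Of the 46 genes called among those chosen by the naming rule, 26 did. The 177 calls between 10 and 0.16 µM at day 9 were 95 (13 higher, 82 lower) when only the libraries of both doses were fitted, 163 by edgeR, 204 by DESeq2, 169 with median-ratio rescaling, 172 with a pseudocount of 0.25 and 202 with no filter. In the same smaller fit the 215 calls of 10 against 0 µM were 80, and with no filter the 2 calls of 0.16 against 0 µM were 15. Without day 18 the calls over the other days were 627 and those of the gap at day 9 were 116. Leaving out 1 replicate at a time gave 126 to 149 calls between 10 and 0.16 µM at day 9, 141 to 190 for 10 against 0 µM (141 without replicate 1 of 10 µM), 2 to 2 for 0.16 against 0 µM, 1333 to 1931 over the other days, 120 to 214 for the gap (120 without replicate 1 of 10 µM at day 9), and 33 to 40 for the 42 list members called.

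With the replicate number as a block, 186 genes were called between 10 and 0.16 µM at day 9, 220 for 10 against 0 µM, 2 for 0.16 against 0 µM, 1518 over the other days and 177 for the gap, and list members called were 47. The numbers were not taken as pairs, because same-numbered dishes of the 2 doses at day 9 correlated in their deviations by 0.03, 0.046 and 0.385. At day 15 all 3 correlations were above 0.1 (0.265, 0.266 and 0.532), and on each other day at least 1 was not. Among genes described above, calls lost under 3 or more alternatives were those of BAX, DUSP4, FN1, FOSL2, INKA2, ND4, NRROS, PMEL, SLC35F1, SLC7A11, STC2 and TRIM5. The cause of these changes was not tested. In the day 9 libraries 3 reads equal 0.0811 to 0.115 CPM at these doses. This limits low genes such as KRT8, TGFB2 and HSPA6, and it covers counting error only.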
